A study of Mus musculus with 20 samples.

Results

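The difference between the injury responses of wild-type and Myd88KO tracheas was described across 43 gene lists, 21 of pathways and 22 of cell types, measured on all 20 samples of the study. For every gene the interaction was the change from uninjured to injured tracheas in Myd88KO mice minus the same change in wild-type mice, on the log2 scale, so that a negative interaction means a lower response in Myd88KO tracheas. The lists held 922 different genes, of which 846 had a tested probe, and 76 were not matched to one. The 4 groups had 5 samples each: tracheas of each genotype without injury and tracheas of each genotype after injury. Wild-type mice were C57/Bl6JOlaHsd from an in-house colony kept apart from the knockout line. Myd88KO mice carried a deletion of Myd88 in all cells. They had been back-crossed for 6 generations to C57/Bl6JOlaHsd and were bred knockout to knockout. Genotype and colony therefore cannot be told apart. Injured tracheas were collected 3 days after 2% polidocanol, a detergent that strips the surface epithelium, and the labels give an age of 4 months for all groups. Whole tracheas were homogenized, so a lower level can mean fewer cells of a type or less RNA per cell, and these cannot be told apart.

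Myd88 is the adaptor that carries signals from most Toll-like receptors and from the interleukin 1 receptor family to the kinases of the Irak family and on to NF-kB, a transcription factor that switches on cytokines, chemokines and its own inhibitors. Tracheal epithelium damaged by detergent is shed, immune cells enter, and the surviving basal and secretory cells divide and rebuild ciliated and club cells. Interferon-stimulated genes, complement and acute phase proteins are further branches of innate defence, some of which airway cells can switch on without Myd88.

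Probes were tested for 18 of 18 basal cell genes, 15 of 15 club and secretory cell genes, 35 of 40 ciliated cell genes and 19 of 20 cartilage genes. They were also tested for 20 of 20 skeletal muscle, 10 of 10 alveolar surfactant and 10 of 11 thyroid genes. These counts therefore show that the genes were detected and do not identify the tissue. Each of the 5 slides carried 1 array of every group, and the replicate number is the slide number. Slides 2, 3 and 4 were scanned on a first day and slides 1 and 5 on a second day. Between 57.5% and 67.8% of spots were well above background per array, and within-group correlations of arrays ran from 0.925 to 0.99, with the lowest of both in the injured Myd88KO group. In that group replicate 5 stood apart: it had the 57.5%, its neutrophil genes lay 0.36 below and its mitosis genes 0.1 below the uninjured Myd88KO mean (log2 medians), whereas replicates 2 and 4 reached or passed the wild-type range in both lists. Replicate 3, scanned on the first day, also had low shifts in some lists (0.3 for neutrophils, -0.05 for acute phase proteins and 0.21 for matrix metalloproteinases), and replicate 1, scanned with replicate 5 on the second day, reached 2 for mitosis genes. The values of both scan days are drawn for every list in the plot of list medians, and the median without injured Myd88KO replicate 5 is given beside many of them.

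No single probe passed the test for the interaction. With limma and Benjamini-Hochberg adjustment, 0 of 26064 probes had an adjusted p under 0.01, the smallest adjusted p was 0.18, and 2656 had an unadjusted p under 0.05, of which 1727 were lower and 929 higher in Myd88KO tracheas. A linear model without moderated variances also called 0 probes and had 1901 lower and 870 higher probes at the unadjusted threshold. With slide as a block limma called 1 probe, that of Alox15, and with scan day as a block 2, those of Alox15 and Frmd5, both described at the end. By the same rule injury changed 1346 probes in wild-type tracheas (811 higher, 535 lower) and 97 in Myd88KO tracheas (34 higher, 63 lower). For the lists each of 14792 genes was represented by its brightest tested probe, and 8954 of these genes had an interaction below 0, with a median of -0.11. Of all genes 0% were called for the interaction at the adjusted threshold, 8.22% were lower and 3.13% were higher in Myd88KO tracheas at an unadjusted p under 0.05. These 2 shares are the background for every count below, over all arrays, of list genes with a lower or higher interaction. Without injured Myd88KO replicate 5 the share of lower genes was 8.57%, and on the first scan day alone it was 10.1%. A count at the unadjusted threshold is a description, not a call. Of all genes, injury raised 3.95% and lowered 2.47% in wild-type tracheas, and raised 0.169% and lowered 0.324% in Myd88KO tracheas, at the adjusted threshold. At an unadjusted p under 0.05, 15.8% were higher and 13.4% lower after injury in wild-type, and 7.41% were higher and 15.1% lower in Myd88KO tracheas.

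Of the 43 lists, 35 had a median interaction below 0, 7 above 0 and 1 at 0. Among the list genes 98 were lower and 22 higher at the unadjusted threshold, and 20 lists exceeded the background share of lower genes while 19 had no lower gene. The medians ran from -1.26 for neutrophil genes to 0.98 for ciliated cell genes. Both of these extremes changed sign between the scan days, as 21 lists did in all, whereas 22 lists lay below 0 on both days and 0 lay above 0 on both. Interferon-stimulated, complement, endothelial and nerve genes had medians of -0.34 or lower on each day. Acute phase proteins, chemokines, matrix metalloproteinases, collagens, DNA replication and macrophage genes were below 0 on both days too, but their first-day medians lay between -0.42 and -0.05 and their second-day medians between -2.63 and -1.11.

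**Figure D1:**
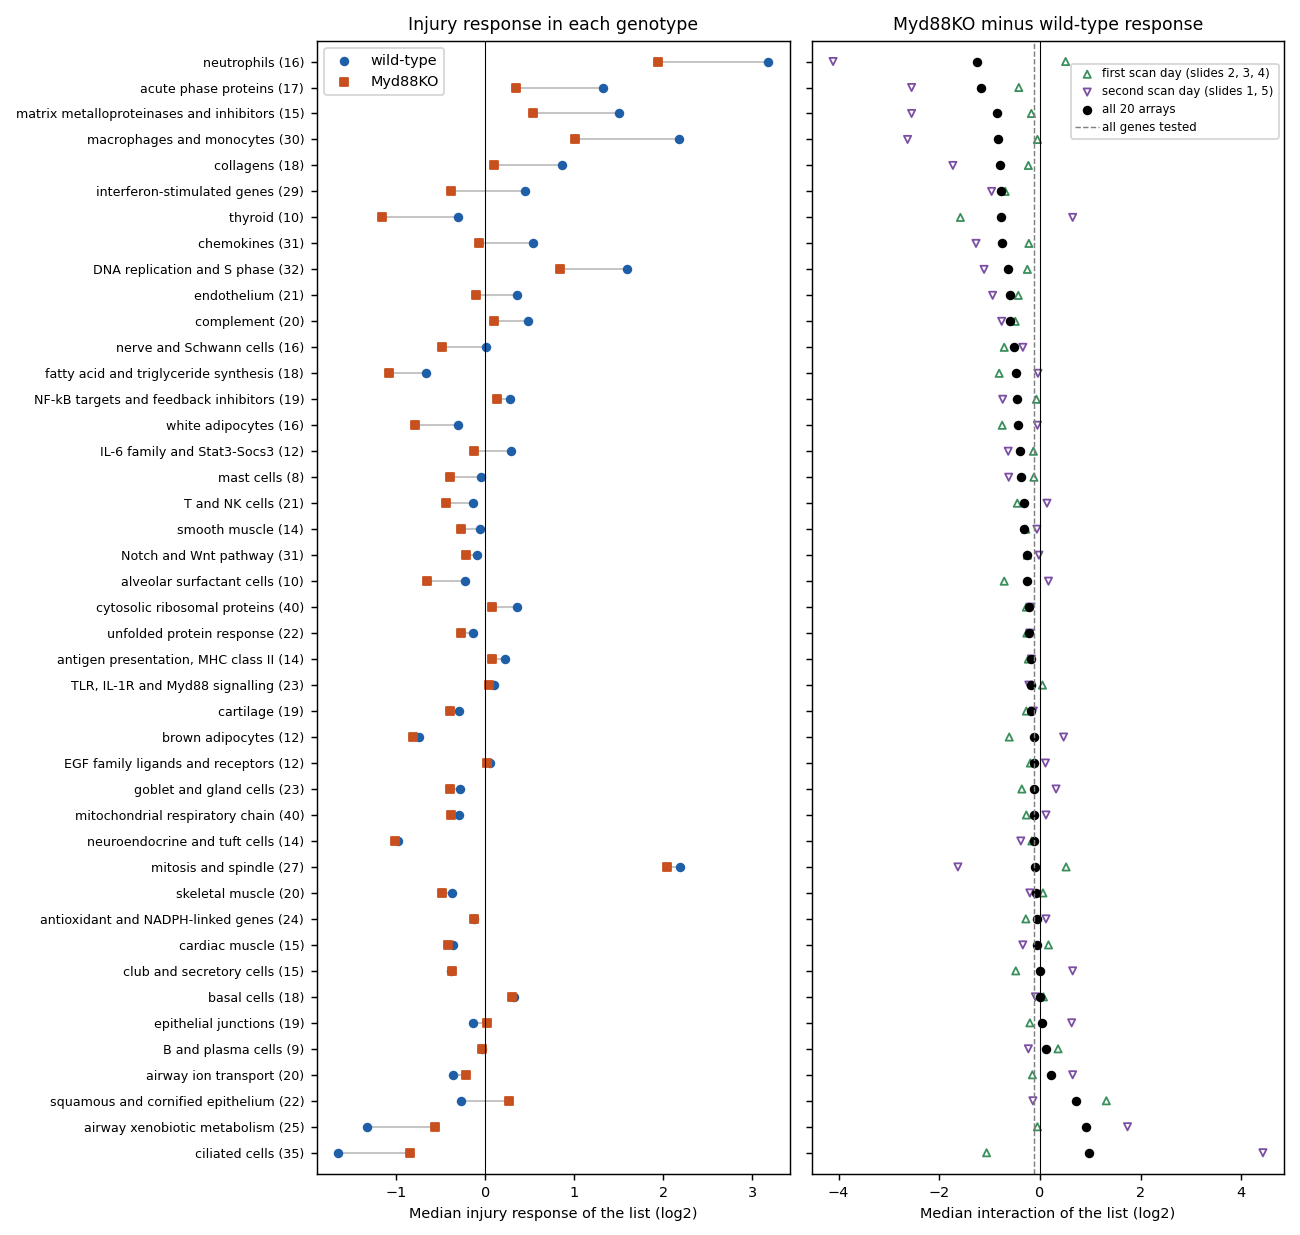
Left, the median injury response of each gene list (log2, number of tested genes in parentheses) in wild-type tracheas (circles) and Myd88KO tracheas (squares); right, the median interaction over all 20 arrays (black) and within each scan day (triangles), with the median over all genes tested as a dashed line. Neutrophil genes had the lowest median interaction (-1.26) and ciliated cell genes the highest (0.98), and for both the triangles of the 2 days lie on opposite sides of 0.

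**Figure D2:**
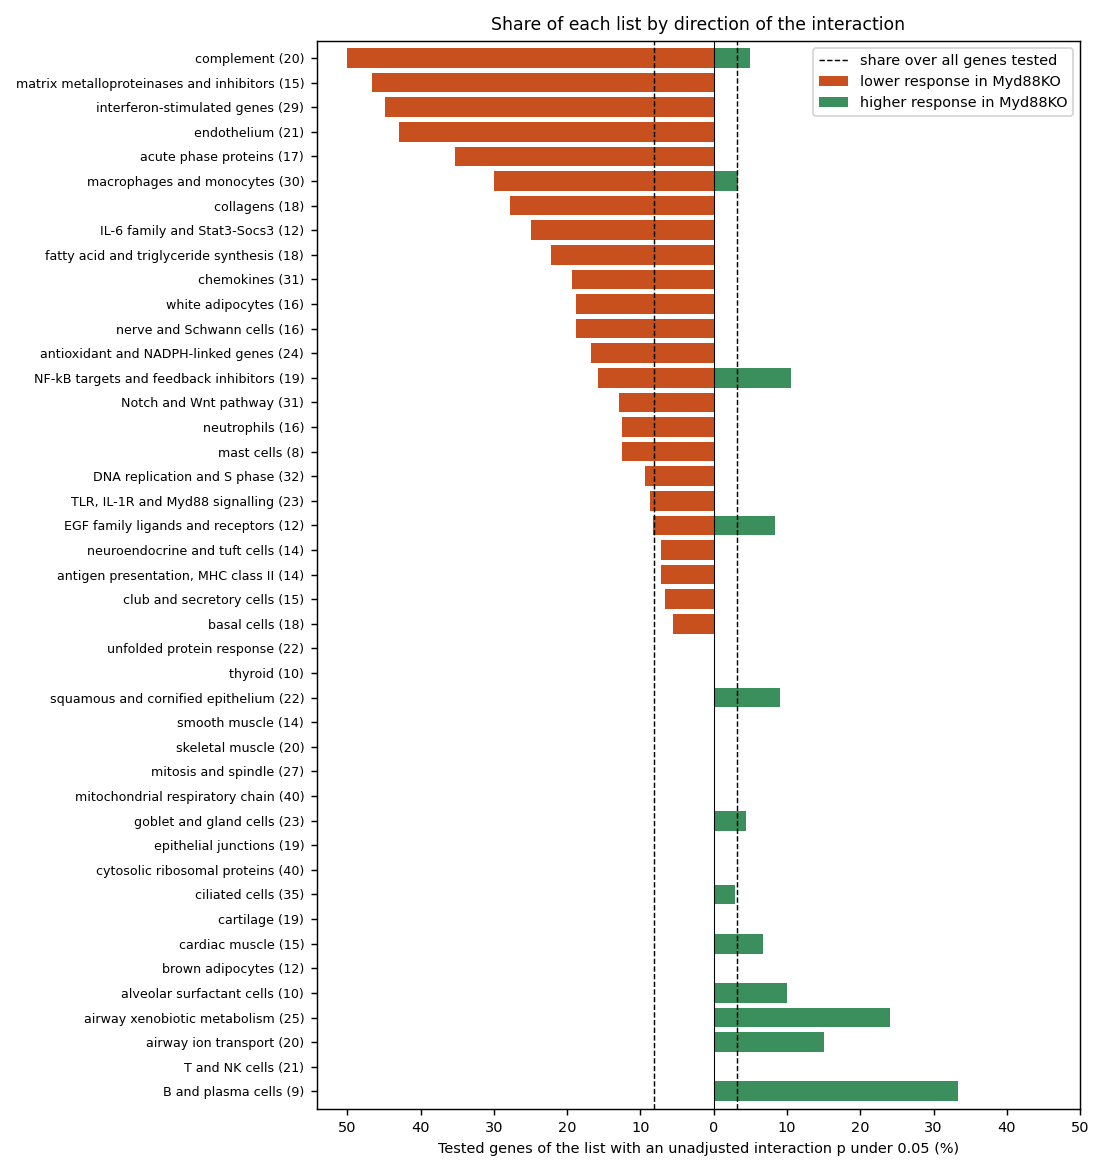
Percent of the tested genes of each list with an unadjusted interaction p under 0.05, to the left for genes with a lower and to the right for genes with a higher response in Myd88KO tracheas; dashed lines are the shares over all genes tested (8.22% lower, 3.13% higher). Complement (50%), matrix metalloproteinases (46.7%), interferon-stimulated genes (44.8%) and endothelium (42.9%) have the highest shares of lower genes.

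Myd88 itself was examined first. Its probe read 2.02, 1.86, 2.16, 1.84 and 1.98 in replicates 1 to 5 of the uninjured wild-type group (log2 intensity relative to the 75th percentile of the array, the scale of all levels below) and 1.88, 1.73, 1.93, 1.75 and 1.48 in the uninjured Myd88KO group. After injury the 5 wild-type tracheas read 2.66, 2.55, 2.24, 2.54 and 2.68, and the 5 Myd88KO tracheas 1.42, 1.91, 2, 1.96 and 1.57. The uninjured groups overlapped, the injured groups did not, and the probe remained well above background on every Myd88KO array. The Myd88KO level was lower by 0.76 in injured tracheas (adjusted p = 0.00838) and its interaction was -0.54 ± 0.20 (SE). Whether the probe lies in the deleted part of the gene is not given in the sources used here, so it is no check of the genotype. The other genes of this pathway had a median response of 0.1 in wild-type and 0.04 in Myd88KO tracheas: of 23 tested receptors, adaptors and kinases, 2 were lower at the unadjusted threshold (8.7%, beside 8.22% of all genes), both of them receptors. These were Tlr5, the flagellin receptor (-0.71), and Tlr6, a partner of Tlr2 in lipopeptide recognition (-1.24, but 0.00 on the first scan day and -3.09 on the second). Tlr2 had an interaction of -1.22. The median of the list was -0.17, close to that of all genes, and was 0.05 on the first and -0.22 on the second scan day.

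The interferon-stimulated genes had a median response to injury of 0.45 in wild-type and -0.38 in Myd88KO tracheas, and a median interaction of -0.78. By the adjusted limma test 0 members rose or fell after injury in either genotype. At an unadjusted p under 0.05, 12 were higher and 2 lower after injury in wild-type, and 0 were higher and 4 lower in Myd88KO tracheas, the last of these near the share of all genes. Of 29 tested members 27 had a negative interaction and 13 were lower at the unadjusted threshold, which is 44.8% of the list beside 8.22% of all genes, while 0 were higher and 0 passed the adjusted test. The shift of the list from the uninjured mean was 0.74, 0.29, -0.1, 0.74 and 0.9 in injured wild-type replicates 1 to 5 and -0.1, -0.39, -0.4, -0.1 and -0.84 in injured Myd88KO replicates 1 to 5. Wild-type replicate 3 was the only wild-type trachea that fell into the Myd88KO range. Within slides 1 to 5 the median interaction was -0.58, -0.4, -1.07, -0.73 and -1.34, below 0 on each, and it was -0.69 on the first and -0.96 on the second scan day. Without injured Myd88KO replicate 5 it was -0.65 with 10 genes lower, when 8.57% of all genes were, and on the first scan day alone 10 genes were lower, when 10.1% of all genes were.

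In uninjured tracheas the median of these genes was 0.37 higher in Myd88KO than in wild-type mice, and in injured tracheas it was 0.41 lower. By the adjusted limma test 0 of 29 differed between the genotypes in either state. At an unadjusted p under 0.05, 4 were higher and 0 lower in uninjured Myd88KO tracheas, beside 4.58% and 1.61% of all genes, and 0 were higher and 11 lower in injured ones, beside 4.51% and 9.11%. Rsad2, an antiviral enzyme of the endoplasmic reticulum, had the lowest p of the list. It read -0.95, -1.1, -1.64, -0.89 and -1.82 in uninjured and 0.55, 0.02, -1.38, 0.25 and 1.02 in injured wild-type tracheas. In Myd88KO tracheas it read -0.36, -0.92, -0.79, -0.83 and -1.47 before and -0.94, -1.53, -1.52, -1.48 and -2.41 after injury. All 5 injured Myd88KO arrays lay below the uninjured array of the same slide, all 5 injured wild-type arrays lay above theirs, and the interaction was -2.07 ± 0.50 (SE; unadjusted p = 0.000559, adjusted p = 0.396). Its other 2 probes gave -2.05 and -2.39. Ifit3, which binds partner proteins that sense viral RNA, had an interaction of -1.85 ± 0.49 (unadjusted p = 0.00124), and its second probe gave -1.97. Ddx58, the cytoplasmic RNA sensor RIG-I, had an interaction of -1.15 ± 0.33 (unadjusted p = 0.00248), and its other probes gave -0.7 and -0.62. The transcription factors Stat2 (-1.08) and Irf9 (-0.77), which act in the main activator complex of this gene class, were each lower at the unadjusted threshold, as were Isg15, the ubiquitin-like modifier (-1.61), Bst2, which tethers virus particles (-1.35), Gbp2 (-0.72) and the immunoproteasome subunit Psmb8 (-0.93). These 6 were chosen after their values were seen. Mx1 had the highest interaction of the list (0.38).

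The promoters of the 3 interferon-stimulated genes of lowest p are shown because their interactions have the same sign and they belong to 1 regulatory class. The motif searched was GAAANNGAA on both strands, the core of the interferon-stimulated response element, and it was chosen after these values were seen. It occurs in 62.5% of the 24 promoters of this list that matched the reference tables, and in 8.58% of 27018 mouse promoters of the same length. The 300 bases run from 250 before to 50 after the start of the gene, 5′ to 3′ on the gene's strand (RefSeq, GRCm38.p6), with matches in capitals. Rsad2 is at chr12:26456403-26456702 (- strand), Ifit3 at chr19:34583279-34583578 (+ strand) and Ddx58 at chr4:40239776-40240075 (- strand).
Rsad2: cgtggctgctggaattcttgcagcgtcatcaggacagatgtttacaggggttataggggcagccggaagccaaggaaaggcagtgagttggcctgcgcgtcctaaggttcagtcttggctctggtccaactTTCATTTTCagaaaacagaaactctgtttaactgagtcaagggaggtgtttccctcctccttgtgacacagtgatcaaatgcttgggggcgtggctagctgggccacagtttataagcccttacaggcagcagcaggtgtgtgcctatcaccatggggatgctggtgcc
Ifit3: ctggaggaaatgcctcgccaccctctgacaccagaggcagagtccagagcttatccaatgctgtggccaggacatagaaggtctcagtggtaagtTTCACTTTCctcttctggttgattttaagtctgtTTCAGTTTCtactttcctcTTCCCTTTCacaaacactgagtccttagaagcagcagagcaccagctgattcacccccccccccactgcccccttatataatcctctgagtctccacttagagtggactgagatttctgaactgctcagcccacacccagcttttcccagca
Ddx58: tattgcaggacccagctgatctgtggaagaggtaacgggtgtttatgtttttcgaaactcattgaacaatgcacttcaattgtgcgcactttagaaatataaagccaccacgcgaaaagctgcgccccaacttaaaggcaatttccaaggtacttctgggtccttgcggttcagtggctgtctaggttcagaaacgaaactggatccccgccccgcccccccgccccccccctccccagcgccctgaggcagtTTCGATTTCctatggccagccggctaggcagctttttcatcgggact
Rsad2 held 1 match, 119 bases before the start, Ifit3 held 3, and Ddx58 held 1 at position 4 after the start. A match is a description of the letters and not a tested site.

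**Figure D3:**
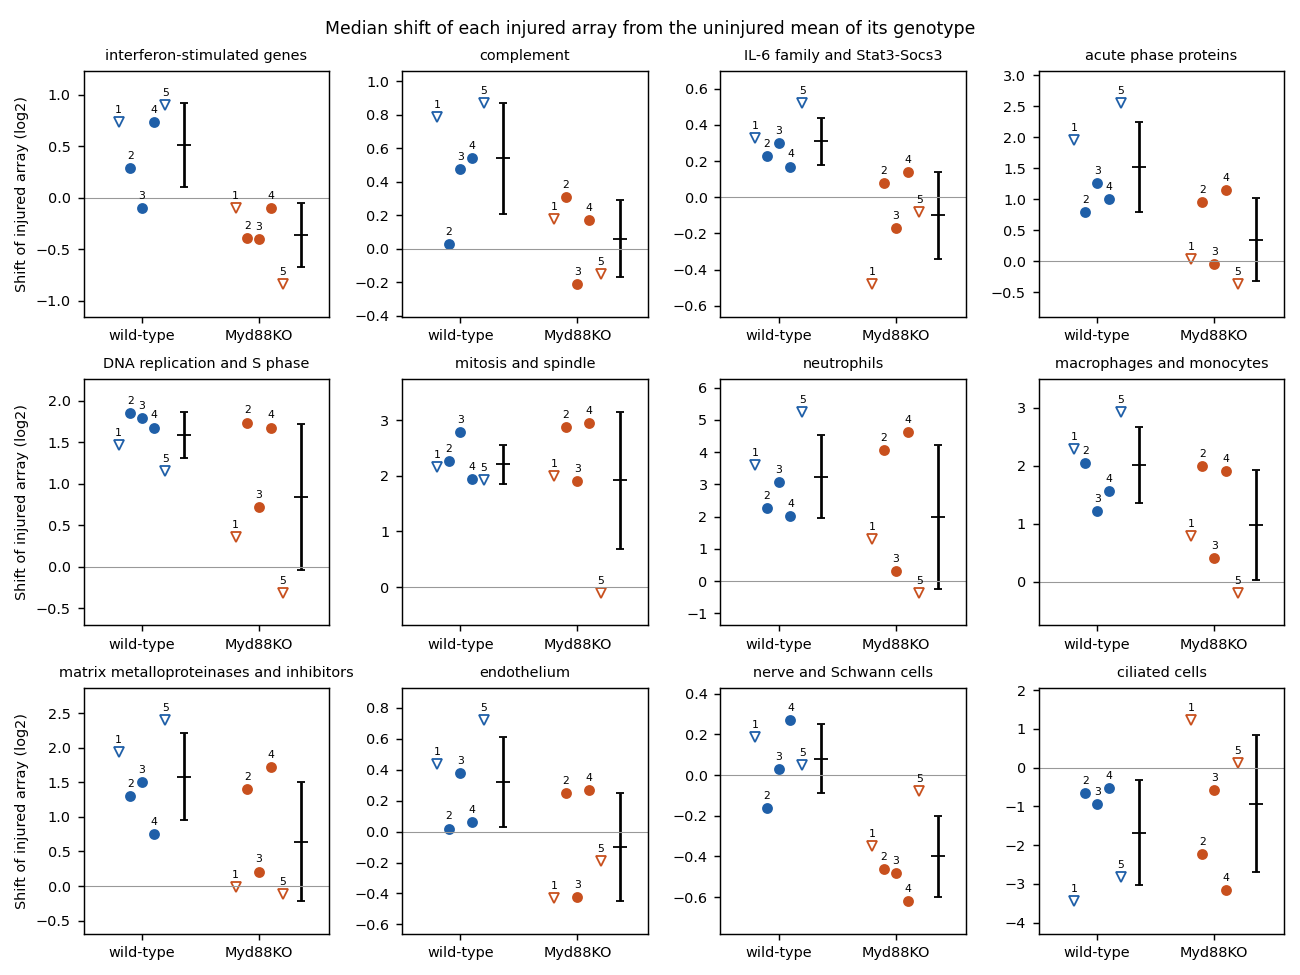
Median shift of each injured array from the uninjured mean of its genotype (log2) for 12 gene lists; points are arrays numbered by replicate, filled circles were scanned on the first and open triangles on the second day, and the bar is the mean ± SD of 5 arrays. The interferon-stimulated genes lie between -0.84 and -0.1 in Myd88KO tracheas and between -0.1 and 0.9 in wild-type tracheas, whereas for neutrophil genes the Myd88KO arrays span -0.36 to 4.61.

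Of the 20 tested genes of complement, the cascade of plasma proteins that tags foreign cells, 8 rose after injury in wild-type mice by the adjusted limma test and 0 did in Myd88KO mice, where 1 was higher at an unadjusted p under 0.05. The median response was 0.48 in wild-type and 0.1 in Myd88KO tracheas and the median interaction was -0.59. At the unadjusted threshold 10 members (50%) were lower and 1 was higher in Myd88KO mice. The median was below 0 on all 5 slides, with values of -0.82, -0.05, -0.95, -0.45 and -0.89, and it was -0.49 and -0.76 on the 2 scan days. Without injured Myd88KO replicate 5, 9 members were lower, and on the first scan day alone 3 were. C4b, a classical pathway component, read 1.68, 2.02, 2.1, 2.15 and 1.91 in uninjured and 2.77, 2.86, 2.96, 3.52 and 2.89 in injured wild-type tracheas, so that the groups did not overlap (rise of 1.03, adjusted p = 0.000526). In Myd88KO tracheas it read 2.32, 2.45, 2.14, 2.28 and 2.14 before and 2.41, 2.85, 2.45, 2.61 and 2.2 after injury, and these groups overlapped. Its interaction was -0.79 ± 0.22 (unadjusted p = 0.00193). Clu, clusterin, which restrains the terminal complex, rose by 1.04 in wild-type tracheas (adjusted p = 0.00156) and had a response of 0.16 in Myd88KO tracheas, with an interaction of -0.88 ± 0.26. C3ar1, the receptor for the C3a fragment, rose by 3.26 in wild-type mice and had an interaction of -2.28 ± 0.77, of which the first scan day showed -0.75 and the second -4.59. The 3 chains of C1q, which macrophages make in quantity, had interactions of -1.3 (C1qa), -1.27 (C1qb) and -1.21 (C1qc), and Cd55, a membrane inhibitor of complement, fell by 1.69 in wild-type mice and had an interaction of 0.78. These 4 were chosen after their values were seen.

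The acute phase proteins, secreted defence proteins controlled by interleukin 6, interleukin 1 and NF-kB, had a median response of 1.32 in wild-type and 0.35 in Myd88KO tracheas. All 17 tested members had a negative interaction, the median was -1.18, and 6 (35.3%) were lower at the unadjusted threshold. By the adjusted limma test 5 rose after injury in wild-type and 0 in Myd88KO tracheas, and at an unadjusted p under 0.05 these counts were 12 and 3, and 3 other members were lower in Myd88KO tracheas. The shift of the list was 1.96, 0.79, 1.26, 1.01 and 2.55 in injured wild-type replicates 1 to 5 and 0.04, 0.96, -0.05, 1.15 and -0.37 in injured Myd88KO replicates 1 to 5. Replicates 2 and 4 of the Myd88KO group lay inside the wild-type range and the other 3 lay below it. The slide values were -1.22, 0.34, -1.72, -0.15 and -3.49, and the day values -0.42 and -2.55. The median without injured wild-type replicate 5 was -0.77. Without injured Myd88KO replicate 5 it was -1.09, with 5 lower genes, when 8.57% of all genes were lower. On the first scan day alone 2 of the 17 genes were lower, beside 10.1% of all genes.

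Saa1, serum amyloid A1, read -1.09, -1.82, -1.48, -1.71 and -1.11 in uninjured and 2.46, -0.12, 1.99, 1.6 and 5.13 in injured wild-type tracheas. In Myd88KO tracheas it read -1.36, -1.52, -1.17, -1.49 and -1.1 before and -1.54, -0.37, -1.16, -0.43 and -1.4 after injury. Every injured wild-type array lay above every Myd88KO array of either kind, and the interaction was -3.3 ± 0.83 (SE; unadjusted p = 0.000791, adjusted p = 0.396). Saa1 and Saa2 are close copies, so probes of one may bind the other. Lcn2, lipocalin 2, an iron-withholding protein of neutrophils and epithelium, had an interaction of -2.79 ± 0.95, with -1.43 and -4.83 on the 2 scan days. In Myd88KO tracheas Lcn2 was well above background on 4 of 5 uninjured and 3 of 5 injured arrays, so this value rests in part on readings below background. Serpina3n, a protease inhibitor, showed another arrangement. It read -3.43, -2.1, -2.21, -2.56 and -3.02 in uninjured and 1.28, 1.37, 0.97, 1.74 and 1.05 in injured wild-type tracheas, while uninjured Myd88KO tracheas already read -0.49, 0.3, 0.37, -0.35 and -1.04. Injured Myd88KO tracheas read -0.09, 2.3, 1, 2.85 and -0.36, so that the injured groups of the genotypes overlapped. Its interaction of -2.56 ± 0.69 therefore stood beside a genotype difference of 2.42 in uninjured tracheas (adjusted p = 0.0184) and of -0.14 in injured tracheas.

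In the list of direct NF-kB targets and feedback inhibitors, 15 of 19 tested genes had an interaction below 0 and 4 above 0. The median interaction of 19 tested genes was -0.46, but the day values were -0.07 and -0.74, and the mean over its genes was -0.24. At the unadjusted threshold 3 genes were lower and 2 higher (15.8% and 10.5%, beside 8.22% and 3.13% of all genes). On the first scan day alone 1 gene was lower and 3 were higher, beside 1497 and 507 of all 14792 genes. Slide 4 gave 0.42. Injured Myd88KO replicates 2 and 4 shifted by 0.58 and 0.78, inside the wild-type range of 0.01 to 0.86, and the other Myd88KO arrays lay below it. Ccl2, the monocyte chemokine, rose by 3.3 in wild-type tracheas (adjusted p = 0.00049) and had a response of 1.16 in Myd88KO tracheas. Injured wild-type tracheas read 4.2, 2.23, 1.18, 2.29 and 3.89, and injured Myd88KO tracheas 0.49, 0.99, -0.03, 1.24 and -0.98, so that only wild-type replicate 3 lay in the Myd88KO range. The interaction was -2.14 ± 0.70 (unadjusted p = 0.00623), with -0.84 and -4.08 on the 2 days. Tnip1, an inhibitor that NF-kB induces, went from 1.56 ± 0.12 to 2.08 ± 0.14 in wild-type (SD, n = 5) and from 2.06 ± 0.15 to 2 ± 0.23 in Myd88KO tracheas. Its uninjured level in Myd88KO mice was thus near the injured wild-type level, and its interaction was -0.57 ± 0.18 (unadjusted p = 0.00543), with -0.54 and -0.62 on the 2 days. Nfkbiz, the nuclear cofactor IkB-zeta, went the other way: its responses were -0.18 in wild-type and 0.9 in Myd88KO tracheas, and its interaction was 1.09 ± 0.36 and above 0 on all 5 slides (0.73, 0.78, 2.76, 0.58 and 0.58). Uninjured Myd88KO tracheas read 0.8 below wild-type for Nfkbiz (adjusted p = 0.357). Il1a, an alarm cytokine of epithelium, was the other higher gene and was chosen after its value was seen. Its fitted interaction of 2.55 rests on readings below background, since it was well above background on 5 of 5 uninjured wild-type arrays and on 2 of 5 arrays in each other group.

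The promoters of the 3 genes of lowest p in the acute phase and NF-kB lists are shown with matches to the general NF-kB pattern in capitals: GGG, any 5 bases, CC, on both strands, overlapping matches joined. This loose pattern occurs in 50.4% of all 27018 promoters, in 88.2% of 17 NF-kB list promoters and in 56.2% of 16 acute phase promoters. Saa1 is at chr7:46742931-46743230 (- strand), Serpina3n at chr12:104406458-104406757 (+ strand) and Tnip1 at chr11:54962891-54963190 (- strand), from the same tables and build.
Saa1: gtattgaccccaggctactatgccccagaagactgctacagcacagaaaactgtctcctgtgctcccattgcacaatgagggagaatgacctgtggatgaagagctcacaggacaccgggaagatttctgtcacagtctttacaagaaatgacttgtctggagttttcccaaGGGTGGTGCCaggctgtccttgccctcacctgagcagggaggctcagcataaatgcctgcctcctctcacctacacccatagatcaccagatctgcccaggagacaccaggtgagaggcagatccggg
Serpina3n: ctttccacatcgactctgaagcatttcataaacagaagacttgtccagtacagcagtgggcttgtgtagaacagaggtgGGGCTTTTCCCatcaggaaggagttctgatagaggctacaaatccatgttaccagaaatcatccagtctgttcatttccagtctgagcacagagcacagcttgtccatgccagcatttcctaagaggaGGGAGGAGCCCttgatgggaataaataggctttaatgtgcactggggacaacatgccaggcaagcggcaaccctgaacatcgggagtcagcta
Tnip1: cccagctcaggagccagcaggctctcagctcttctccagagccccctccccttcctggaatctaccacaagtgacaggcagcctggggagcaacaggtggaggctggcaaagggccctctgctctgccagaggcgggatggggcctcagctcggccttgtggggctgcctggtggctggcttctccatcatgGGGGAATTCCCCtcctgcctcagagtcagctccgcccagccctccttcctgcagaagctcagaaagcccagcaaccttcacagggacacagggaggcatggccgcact
Saa1 held 1 match, 78 bases before the start. Serpina3n and Tnip1 held 4 each, counting both strands, which merge into 2 stretches in Serpina3n and 1 in Tnip1.

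**Figure D4:**
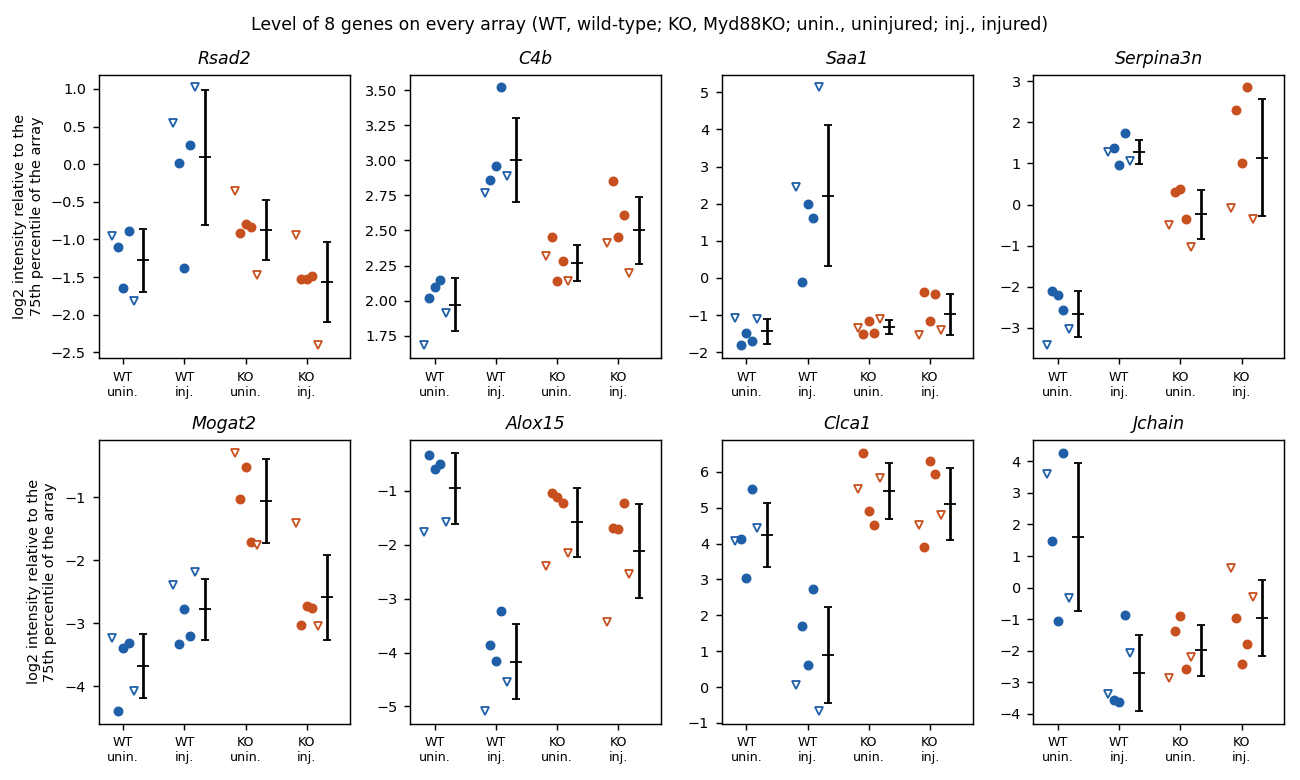
Level of 8 genes on every array (log2 intensity relative to the 75th percentile of the array) in uninjured and injured wild-type and Myd88KO tracheas; points are arrays, filled circles were scanned on the first and open triangles on the second day, and the bar is the mean ± SD of 5 arrays. For Rsad2, C4b and Saa1 the wild-type tracheas moved up and the Myd88KO tracheas little or down, for Serpina3n and Mogat2 the uninjured genotypes already differed, and for Alox15, Clca1 and Jchain the wild-type tracheas moved down.

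Genes of the interleukin 6 family and its Stat3-Socs3 branch were the only list whose injured arrays did not overlap between genotypes. The shift was 0.33, 0.23, 0.3, 0.17 and 0.52 in injured wild-type replicates 1 to 5 and -0.48, 0.08, -0.17, 0.14 and -0.08 in injured Myd88KO replicates 1 to 5. The gap between the groups was small, from 0.14 to 0.17, and the median interaction of 12 tested genes was -0.39, with -0.13 and -0.63 on the 2 scan days. On slide 4 it was 0.35, and it was -0.25 without injured Myd88KO replicate 1 and -0.26 without injured wild-type replicate 5. Lifr, the receptor for leukaemia inhibitory factor, had an interaction of -0.65 ± 0.21, but its 4 other probes gave between -0.5 and 0. Il11, a cytokine of the family, had -0.74 ± 0.34. Stat3, the transcription factor of the branch, read 4.57, 3.77, 3.71, 3.9 and 4.47 in uninjured and 4.72, 4.35, 4.4, 4.33 and 4.67 in injured wild-type tracheas, and 4.36, 4.13, 4.26, 3.97 and 4.41 before and 4.07, 4.27, 3.67, 3.94 and 4.42 after injury in Myd88KO tracheas. Its interaction of -0.57 ± 0.26 was below 0 on all 5 slides, and its second probe gave -0.34. Socs3, the feedback inhibitor, was -0.55 and was chosen after its value was seen.

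Chemokines had a median response of 0.54 in wild-type and -0.07 in Myd88KO tracheas, with 9 of 31 tested genes rising in wild-type and 1 in Myd88KO mice by the adjusted test, or 14 and 7 higher at an unadjusted p under 0.05. The median interaction was -0.76 and 6 genes (19.4%) were lower at the unadjusted threshold. Ccl7, a monocyte chemokine beside Ccl2, rose by 3.58 in wild-type tracheas and had an interaction of -2.26 ± 0.75. Cxcl10, which interferon induces and which draws T cells, had an interaction of -2.5 ± 0.86 with like values on both days (-2.38 and -2.67). The median of the list was less even: it was -0.22 on the first and -1.27 on the second scan day, and -0.65 without injured Myd88KO replicate 5. Remodelling genes behaved in the same way. Matrix metalloproteinases and their inhibitors had a median interaction of -0.86 with 7 of 15 genes (46.7%) lower, but the day values were -0.17 and -2.55, and on the first day alone 1 gene was lower. Without injured Myd88KO replicate 5 the median was -0.53 and 5 genes were lower. Mmp9, a gelatinase of neutrophils and epithelium, rose by 2.21 in wild-type tracheas (adjusted p = 0.00425), and its injured Myd88KO arrays read -2.58, -0.2, -1.75, -0.25 and -3.06 against 0.02, -0.39, 0.53, -0.07 and 0.62 in wild-type. Myd88KO replicates 2 and 4 lay inside the wild-type range, and the interaction was -1.82 ± 0.65. Mmp19 (-1.74) and Plau, the urokinase (-1.21), had day values of -0.61 and -3.44, and of -0.27 and -2.63. Collagens had a median interaction of -0.79 and day values of -0.23 and -1.73. Of 18 collagens 5 (27.8%) were lower, and without injured Myd88KO replicate 5 the median was -0.52 and 1 was lower. Col15a1, a basement membrane collagen, was the exception, with -0.73 ± 0.20 and day values of -0.59 and -0.95, and Col16a1 (-0.72) and Col6a3 (-1) differed more between days.

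Markers of infiltrating cells differed widely between arrays of a group. Neutrophil genes had a median response of 3.18 in wild-type and 1.94 in Myd88KO tracheas, and a median interaction of -1.26 over 16 tested genes, of which 2 (12.5%) were lower at the unadjusted threshold. These 2 were Lcn2 and Mmp9, which are also counted in the acute phase and matrix metalloproteinase lists. The shift was 3.6, 2.26, 3.07, 2.01 and 5.25 in injured wild-type replicates 1 to 5 and 1.29, 4.06, 0.3, 4.61 and -0.36 in injured Myd88KO replicates 1 to 5. Myd88KO replicates 2 and 4 were inside the wild-type range and the other 3 below it. The median interaction was 0.51 on the first and -4.11 on the second scan day, and -0.6 without injured Myd88KO replicate 5. Mpo, a granule enzyme made by immature neutrophils, had -0.48. Macrophage and monocyte genes rose in wild-type tracheas in 16 of 30 cases by the adjusted test and in 1 in Myd88KO tracheas, while 22 and 17 were higher at an unadjusted p under 0.05. Their median interaction was -0.84 and 9 (30%) were lower, but the day values were -0.05 and -2.63, and on the first day 1 gene was lower and 2 were higher. The median was -0.48 and 5 genes were lower without injured Myd88KO replicate 5. Fcgr1, a high-affinity antibody receptor (-2.37), Gpnmb, a glycoprotein of lysosome-rich macrophages (-2.21), and Itgax, an integrin of dendritic cells and macrophages (-1.27), had the lowest p. The second Itgax probe gave -0.24.

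Other immune lists had medians between -0.37 and 0.12. Antigen presentation genes had a median of -0.18 (-0.11 without injured Myd88KO replicate 5). In them Ccr7, the homing receptor of migrating dendritic cells, was -1.99 ± 0.59 (-1.11 and -3.32 on the 2 days) and Cd74 -0.45. Cd86 was -0.8 (0.54 and -2.81 on the 2 days, second probe -1.56). It was well above background on 3 of 5 uninjured wild-type arrays, and its interaction ranged from -1.04 to -0.15 over the settings. T and NK cell genes had a median of -0.31, with day values of -0.45 and 0.14 and 0 of 21 genes lower or higher over all arrays, and Il7r (-1.24), Nkg7 (-0.65) and Cd2 (-0.75) had the lowest p. Mast cell genes had a median of -0.37 (-0.12 and -0.62 on the 2 days), with Gata2 at -0.53, Kit at -0.41 and Fcer1a at -0.33. B and plasma cell genes split. The median of 9 tested genes was 0.12, with day values of 0.36 and -0.23 and 0.31 without injured Myd88KO replicate 5, but 3 genes (33.3%, beside 3.13% of all genes) were higher at the unadjusted threshold, and these 3 are genes of antibody secretion: Jchain, the joining chain of secreted antibodies, Mzb1, an endoplasmic reticulum chaperone of plasma cells, and Pou2af1, a coactivator of antibody genes. Jchain read 3.6, 1.46, -1.05, 4.27 and -0.33 in uninjured and -3.37, -3.56, -3.63, -0.87 and -2.08 in injured wild-type tracheas, and -2.87, -1.38, -0.91, -2.57 and -2.2 before and 0.63, -0.96, -2.42, -1.8 and -0.3 after injury in Myd88KO tracheas. Uninjured wild-type tracheas differed widely among themselves, and the Myd88KO groups overlapped. The interaction was 5.31 ± 1.23 (unadjusted p = 0.000365, adjusted p = 0.396), between 1.08 and 10.46 over the slides, and its second probe gave 5.49. Pou2af1 fell by 1.22 and Mzb1 by 1.69 in wild-type tracheas, with interactions of 1.45 ± 0.39 and 1.4 ± 0.39. Cd22, a receptor of B cells, was -0.87 and was chosen after its value was seen.

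Genes of cell division had high median responses in both genotypes. Mitosis and spindle genes had a median response of 2.19 in wild-type and 2.04 in Myd88KO tracheas, with 14 of 27 tested genes passing the adjusted test in wild-type and 1 in Myd88KO mice. At an unadjusted p under 0.05, 26 were higher in wild-type and all 27 in Myd88KO tracheas, and the median interaction was -0.1, as for all genes. Of these genes 0 were lower or higher at the unadjusted threshold. The injured Myd88KO arrays differed far more among themselves (SD 1.23) than the injured wild-type arrays (SD 0.35). Replicates 1 to 5 shifted by 2, 2.87, 1.91, 2.94 and -0.1 in the Myd88KO and by 2.16, 2.27, 2.78, 1.95 and 1.92 in the wild-type group. Among uninjured arrays the wild-type group spread more, from -0.55 to 1.26 around its mean, against -0.42 to 0.46 in the Myd88KO group. When single arrays were left out the median interaction ranged from -0.39 to 0.35, the highest being without injured Myd88KO replicate 5. It was 0.04 with arrays weighted, and the day values were 0.52 and -1.63, so that its sign is not settled. Plk1 (-0.91), Aurkb (-0.85) and Cenpf (1), all of the mitotic spindle and kinetochore, had the lowest p, the smallest being 0.257. For DNA replication genes the median responses were 1.59 and 0.84, and 31 of 32 had a negative interaction. By the adjusted limma test 21 rose in wild-type and 0 in Myd88KO tracheas, and at an unadjusted p under 0.05 these counts were 29 and 21. Their median was -0.63, or -0.36 without injured Myd88KO replicate 5, with day values of -0.25 and -1.11, and 3 genes (9.38%, beside 8.22% of all genes) were lower at the unadjusted threshold. Slides 1 to 5 gave -0.95, 0.00, -0.62, -0.14 and -1.37. Pold1, the catalytic subunit of DNA polymerase delta, read 1.76, 1.98, 1.86, 2.03 and 1.4 in injured wild-type and 0.94, 1.89, 1.12, 1.83 and 0.72 in injured Myd88KO tracheas. Replicates 2 and 4 again lay inside the wild-type range, and the interaction of -0.81 ± 0.29 was below 0 on all 5 slides. Cdt1, which loads the replicative helicase, was -1.21, and E2f1, a transcription factor of S phase, was -1.18.

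The highest medians were those of ciliated cell, xenobiotic metabolism, squamous and ion transport genes, and these depended on the scan day. Ciliated cell genes had a median response of -1.65 in wild-type and -0.84 in Myd88KO tracheas and a median interaction of 0.98, with 34 of 35 genes above 0 but 1 (2.86%, beside 3.13% of all genes) higher at the unadjusted threshold. The shift was -3.45, -0.65, -0.95, -0.53 and -2.83 in injured wild-type and 1.22, -2.24, -0.59, -3.16 and 0.11 in injured Myd88KO replicates 1 to 5. On the second day the wild-type arrays had their lowest and the Myd88KO arrays their highest values. On the first day the Myd88KO array lay below the wild-type array of its slide for replicates 2 and 4 but not for replicate 3, and the day values were -1.06 and 4.43. On the first day alone 8 genes were lower and 0 higher. The median was 0.68 without injured Myd88KO replicate 5. Sntn, a protein of the ciliary tip, read 0.05, -0.54, -1.37, -0.71 and -0.97 in uninjured wild-type tracheas and was not well above background on any injured wild-type array, a fall of at least 21.2-fold. It was well above background on 3 of 5 injured Myd88KO arrays. Its interaction therefore rests on readings below background, and it was 2.96 as fitted, 1.73 with dim values set to the background floor and 1.02 with normexp background correction. The dynein Dnah5 (2.11) and the axonemal ruler protein Ccdc39 (2.35) had day values of -0.31 and 5.74, and of 0.68 and 4.84. Across the 12 lists drawn in the plot of array shifts, Myd88KO replicates 2 and 4 had both the highest neutrophil and the lowest ciliated values, and replicates 1 and 5 the reverse in the ciliated list.

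Club and secretory cell genes had median responses of -0.38 and -0.37 and a median interaction of 0.00. Of 15 tested genes 5 fell in wild-type and 2 in Myd88KO tracheas by the adjusted test. Scgb3a2, a secretoglobin, fell by 5.78 in wild-type mice and had an interaction of 2.41 (-0.1 and 6.17 on the 2 days), Aldh1a1, a retinaldehyde dehydrogenase, had 1.1 (-0.48 and 2.89 on the 2 days) and Hp, haptoglobin, had -1.33. Genes of airway xenobiotic metabolism, enzymes that club cells use to modify foreign compounds, had median responses of -1.33 and -0.56. By the adjusted test 10 of 25 fell in wild-type and 1 in Myd88KO tracheas (17 and 11 lower at an unadjusted p under 0.05), and 6 (24%, beside 3.13% of all genes) had a higher interaction at the unadjusted threshold. The median of 0.91 (0.79 without injured Myd88KO replicate 5) was 1.74 on the second and -0.05 on the first day, with 1.96, -0.18, 0.69, -0.23 and 1.59 on slides 1 to 5. Adh7, an alcohol dehydrogenase that also acts on retinol, was more even: injured wild-type tracheas read 1.83, 2.01, 2.18, 2.46 and 1.63 against 2.72, 2.36, 3.37, 2.16 and 2.69 uninjured, and injured Myd88KO tracheas 3.3, 1.99, 2.69, 2.39 and 2.16 against 2.18, 1.87, 1.98, 1.5 and 2.37 uninjured. Its interaction was 1.16 ± 0.36 and above 0 on all 5 slides. Aox3 (1.43), an oxidase of foreign compounds, fell by 2.27 in wild-type tracheas.

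Ion transport genes had a median of 0.22 (-0.15 and 0.65 on the 2 days), 3 of 20 (15%) being higher. Clca1, a secreted protein of goblet cells that acts on chloride channels, read 4.06, 4.12, 3.05, 5.52 and 4.44 in uninjured and 0.05, 1.69, 0.62, 2.74 and -0.66 in injured wild-type tracheas. In Myd88KO tracheas it read 5.53, 6.53, 4.9, 4.52 and 5.82 before and 4.53, 3.91, 6.3, 5.95 and 4.79 after injury. The wild-type fall of 3.35 (adjusted p = 0.00159) had no counterpart past the test in Myd88KO mice (-0.36), every injured Myd88KO array lay above every injured wild-type array (difference 4.21, adjusted p = 0.0005), and the interaction was 2.99 ± 0.84 (unadjusted p = 0.00215), with 2.62 and 3.54 on the 2 days. On slide 2 it was -0.19. Slc26a4, an anion exchanger, had 1.98 with day values of 3.57 and -0.41, and Ano1, a chloride channel, 0.51. The goblet and gland list, with Clca1 included, had a median of -0.11 (-0.36 and 0.32 on the 2 days, -0.25 without injured Myd88KO replicate 5). Of its 23 tested genes 14 had an interaction below 0 and 9 above 0. Muc16, a membrane mucin, was at 0.62 (second probe 1.09) and Agr2, a mucin chaperone, at -0.34.

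Basal cell genes had median responses of 0.32 and 0.3 and a median interaction of 0.01, which was 0.1 without injured Myd88KO replicate 5 and ranged from -0.24 to 0.2 when single arrays were left out. Of 18 genes 1 was lower, Cd44 (-0.98, other probes -0.29 and -0.75), while Dst had 0.61 and Sox2 0.44, both with opposite signs on the 2 days. Genes of squamous and cornified epithelium had a median of 0.71 (1.32 and -0.14 on the 2 days), but this rested on single arrays. Lor, loricrin of the cornified envelope, read 8.54 in uninjured wild-type replicate 3 against -1.61 to 0.12 on the other 4, and 3.93 and 4.44 in injured Myd88KO replicates 1 and 2 against -2.14 to -1.26 on the other 3. Without uninjured wild-type replicate 3 the median of the list was -0.22, and without injured Myd88KO replicate 5 it was 0.88. Lce3c (4.7) and Krt10 (1.29, second probe 0.05) had the next lowest p. Epithelial junction genes had a median of 0.05 with Cgn at 0.7 (its other probes gave 0.69 and -0.2) and Cldn8 at 0.59. EGF family genes had a median of -0.11, or -0.07 without injured Myd88KO replicate 5. In them the ligand Btc was 1.03 ± 0.36 with day values of 1.08 and 0.96, but it was well above background on 3 of 5 injured wild-type arrays and had 0.42 with normexp background correction, the ligand Nrg1 was -1.26 with its other probes at 0.41 and -2.16, and the receptor Erbb4 was -0.3. Notch and Wnt genes had a median of -0.25, with day values of -0.25 and -0.02 and 4 of 31 (12.9%) lower. The Notch effector Heyl (-0.69), the Wnt receptor Fzd2 (-0.65) and the Wnt antagonist Sfrp1 (-0.72) had the lowest p. Alveolar surfactant genes, which mark lung carried over with the trachea, had a median of -0.25 (-0.39 without injured Myd88KO replicate 5), with Lamp3 at 0.73, Sftpb at -1.02 and Napsa at -1.32. Sftpb was not well above background on any injured wild-type array, so its value rests on readings below background.

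Of the structural cell types of the tracheal wall, endothelium had the highest share of lower genes, and no difference between lists was tested. Endothelial genes had a median response of 0.36 in wild-type and -0.1 in Myd88KO tracheas, and 9 of 21 (42.9%) were lower at the unadjusted threshold, or 8 without injured Myd88KO replicate 5. On the first scan day alone 2 of the 21 were lower, when 10.1% of all genes were. The median interaction was -0.6, with -0.43 and -0.94 on the 2 days and 0.3 on slide 4. Sox18, a transcription factor of vessels, read 0.57, 0.31, 0.29, 0.7 and 0.75 in uninjured and 1.43, 1.37, 1.44, 1.16 and 1.75 in injured wild-type tracheas (rise of 0.91, adjusted p = 0.00585). In injured Myd88KO tracheas it read 0.62, 1.41, 0.46, 1.3 and 0.76 with a response of 0.00, and the interaction was -0.91 ± 0.28. Robo4, a guidance receptor of vessels, was -0.65 and the tight junction protein Cldn5 was -0.8. Nerve and Schwann cell genes had a median response of 0.01 in wild-type and -0.49 in Myd88KO tracheas, and a median interaction of -0.51 that was below 0 on all 5 slides (-0.68, -0.41, -0.81, -0.66 and -0.13). Of 16 genes 3 (18.8%) were lower, or 6 without injured Myd88KO replicate 5. The myelin protein Pmp22 was -0.57 and the neuronal tubulin Tubb3 was -0.79. Smooth muscle genes (median -0.31, day values -0.28 and -0.06) and cartilage genes (-0.17, day values -0.27 and -0.13) had 0 genes past the unadjusted threshold over all arrays, while on the first scan day alone 3 of 14 smooth muscle and 1 of 19 cartilage genes were lower. Tagln was -0.44 (second probe -0.2), Smtn -0.59 and Acta2 -0.38 (other probes -0.17, -0.08 and -0.07) in smooth muscle, and Sox9 was -0.69 (other probes 0.18 and -0.41), Sox5 0.48 and Col2a1 -0.82 in cartilage.

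Some lists mark tissue that can adhere to a trachea. Thyroid genes had a median of -0.78 with 0 of 10 past the unadjusted threshold, or 4 lower on the first scan day alone, and day values of -1.58 and 0.65 (-0.64 without injured Myd88KO replicate 5), with Pax8 at -1.48, Tg at -0.79 and Duox2 at 0.91. White adipocyte genes had -0.43 (-0.75 and -0.05 on the 2 days, -0.57 without injured Myd88KO replicate 5). Of these 3 of 16 (18.8%) were lower, or 6 on the first scan day alone. The 3 were the lipases Lipe (-0.93, other probes 0.91 and -0.8) and Pnpla2 (-0.72) and the transcription factor Cebpa (-0.58, second probe -0.32). Brown adipocyte genes had -0.12 (-0.35 without injured Myd88KO replicate 5) with Otop1 at -0.77, Prdm16 at -0.32 and Cidea at -0.57. Skeletal muscle genes had -0.08, or -0.33 without injured Myd88KO replicate 5 (Acta1 -0.54, Myot 0.63, Ryr1 -0.35) and cardiac muscle genes -0.05, or -0.35 without it (Pln 0.91, Mybpc3 -0.81, Nppb -0.55 with a second probe at -0.08). The part of adhering tissue in the lists above was not tested. Neuroendocrine and tuft cell genes, of the epithelium itself, had -0.11 (-0.41 without injured Myd88KO replicate 5) with Syp at -0.55, Alox5ap at -1.08 and Ltc4s at -0.62.

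Among the metabolic and housekeeping lists below, all but fatty acid and triglyceride synthesis had medians between -0.22 and -0.05, beside -0.11 for all genes. Fatty acid and triglyceride synthesis genes had median responses of -0.67 in wild-type and -1.08 in Myd88KO tracheas, with 1 gene falling in each by the adjusted test. Their median interaction was -0.48 with 4 of 18 (22.2%) lower, or 8 on the first scan day alone, when 10.1% of all genes were. The day values were -0.81 and -0.04, beside -0.18 and -0.02 for all genes. In uninjured tracheas the median of the list was 0.74 higher in Myd88KO than in wild-type mice, the highest of all lists. In injured tracheas it was 0.24 higher. The adipocyte lists moved with it (uninjured genotype medians 0.48 for white and 0.29 for brown adipocytes). Mogat2, an acyltransferase of triglyceride synthesis, read -3.24, -4.39, -3.4, -3.32 and -4.08 in uninjured and -2.39, -3.33, -2.77, -3.2 and -2.19 in injured wild-type tracheas. In Myd88KO tracheas it read -0.29, -1.03, -0.51, -1.71 and -1.76 before and -1.4, -3.03, -2.72, -2.75 and -3.04 after injury. The injured genotypes overlapped and the uninjured did not (difference 2.62, adjusted p = 0.000259), and the interaction was -2.44 ± 0.50 (unadjusted p = 0.000106, adjusted p = 0.277). Srebf1, the regulator of lipid synthesis, was -0.71 and Acly, which supplies cytosolic acetyl groups, was -0.8. Antioxidant genes had a median of -0.05, but 4 of 24 (16.7%, beside 8.22% of all genes) were lower. Among them were Gpx3 (-0.9), Tkt (-0.63) and Gpx1 (-0.57). Unfolded protein response genes had -0.22 with the stress sensor Ern1 at -0.53 and the chaperones Sdf2l1 and Calr at -0.62 and -0.64. Cytosolic ribosomal proteins had -0.22, with 39 of 40 below 0 but 0 past the unadjusted threshold (Rpl6 -0.38, Rpl10a -0.37), and this median was -0.01 after quantile normalization. Respiratory chain genes had -0.11 (-0.25 without injured Myd88KO replicate 5) with Uqcrc1 at -0.47 (second probe -0.2), Ndufs1 at 0.39 and Sdhd at -0.31.

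**Figure D5:**
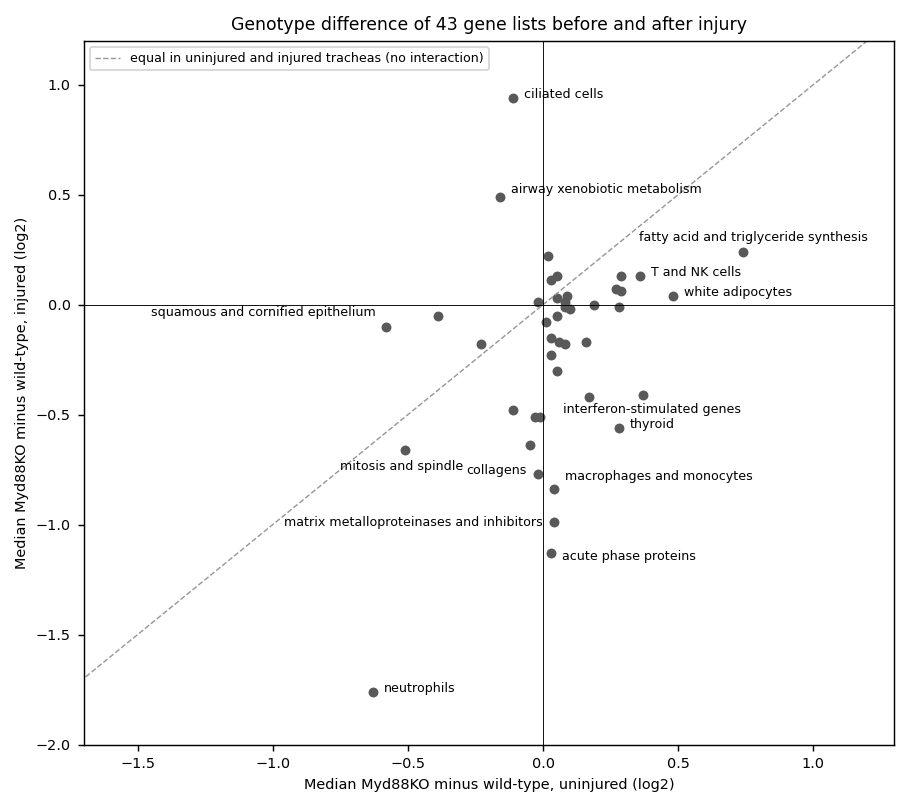
Median genotype difference (Myd88KO minus wild-type, log2) of each of 43 gene lists in uninjured tracheas (horizontal) and in injured tracheas (vertical); the dashed line marks equal differences and selected lists are named. Interferon-stimulated genes lie at 0.37 before and -0.41 after injury, acute phase proteins at 0.03 and -1.13, and fatty acid and triglyceride synthesis at 0.74 and 0.24.

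The genes of lowest interaction p over the whole array mostly lay outside these lists. The 10 negative ones had adjusted p values from 0.186 to 0.396, and each had the same sign on both scan days. Frmd5, a membrane-associated FERM domain protein, read -0.82, -1.75, -1.83, -1.74 and -1.53 in uninjured and 0.57, -0.1, 0.51, -0.52 and 0.14 in injured wild-type tracheas. In Myd88KO tracheas it read -0.31, -0.64, -0.58, -0.59 and -0.45 before and -0.46, -2.25, -2.7, -2.06 and -0.8 after injury. Wild-type tracheas rose without overlap and the interaction was -2.79 ± 0.49 (unadjusted p = 1.43e-05, adjusted p = 0.186), with its other probes at -2.77 and -3.64. Beside Frmd5 and Mogat2 these were Angptl4, an inhibitor of lipoprotein lipase (-2.2), Calhm6 (-1.91, well above background on 3 of 5 uninjured wild-type arrays), Rnf165 (-1.53), the adrenergic receptor Adra1b (-1.37), Gpr162 (-1.33), the guanine nucleotide synthesis enzyme Impdh1 (-1.14), H6pd, which makes NADPH in the endoplasmic reticulum (-1, second probe -0.56), and Chpf2 of chondroitin synthesis (-0.97).

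The 10 positive genes of lowest p included 8 that fell in wild-type tracheas by the adjusted test. Alox15, a lipoxygenase of airway epithelium and eosinophils, read -1.76, -0.34, -0.6, -0.49 and -1.57 in uninjured and -5.08, -3.86, -4.16, -3.22 and -4.55 in injured wild-type tracheas, against -2.39, -1.03, -1.11, -1.23 and -2.16 before and -3.43, -1.69, -1.7, -1.22 and -2.55 after injury in Myd88KO tracheas. The wild-type groups were far apart, the Myd88KO groups overlapped, and the interaction of 2.69 ± 0.60 (unadjusted p = 0.000266, adjusted p = 0.385) was between 2.28 and 2.97 on every slide. Beside Alox15 and Jchain these were Pttg1, securin of mitosis (2.11, beside an uninjured genotype difference of -3.33 with an adjusted p of 5.93e-06), Ibsp, a bone matrix protein (2.11), the proton pump subunit Atp6v1c2 (1.88), Tex33 (1.69), the creatine transporter Slc16a12 (1.32, well above background on 2 of 5 injured wild-type arrays, and 0.41 with normexp background correction), the adaptor Nck1 (1.12, other probes 0.72 and -0.25), the purine receptor P2ry1 (1.01, second probe 0.36) and Retreg1, a receptor of endoplasmic reticulum turnover (0.9). Of the 144 genes named by rule, 104 had an interaction below 0, 89 had an unadjusted p under 0.05 and the adjusted p ran from 0.186 to 0.815.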

How the data were processed

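Total RNA of 20 whole tracheas was hybridised to 1-colour Agilent whole mouse genome arrays, each sample on its own array. The deposited files hold background-subtracted spot intensity from the authors' Agilent Feature Extraction 9.5.1.1, not normalized between arrays, and each array has 45018 spots. The deposited value table (the same intensity values, between 0.995 and 1.005 of the scanner values) was used as an alternative. Control spots (1639) and 1960 outlier values were left out and 1 saturated spot was kept. Values were log2 intensity minus the 75th percentile of each array. Of 41174 probes, 26064 were tested, namely those that rose well above background on 10 or more of the 20 arrays. Names came from RefSeq accessions for 22951 probes, current symbols for 6659 and older symbols for 3109, and 8455 kept the array's name.

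A group-means model was fitted with limma 3.58.1 in R 4.3.3, with the data.table package, version 1.17.8, over all 20 arrays, with Benjamini-Hochberg adjustment over all tested probes and calls at an adjusted p under 0.01. The fit was also run on simulated arrays with set interactions. Their errors were independent between arrays, with no slide or scan day effect, so that run cannot speak to such effects in these data. Each gene was its brightest tested probe, and a list was its median with counts, with no test of the list. The change of an array was taken from the uninjured mean of its genotype. Named genes were Myd88, the 3 genes of lowest interaction p in each list, and the 10 positive and 10 negative genes of lowest p. Because p chose them, their values are descriptions. Some genes that the rule names are not reported here. The methods describe the 5 samples per group as biological replicates. The number of arrays limits the precision. The members and lists were chosen with earlier results of these data known. Replicate number equals slide number. The slide was not a term of the model as reported, and was a block in an alternative. Alternatives were other scalings, background correction, filters, blocks, weights, probe summaries and leaving out each array.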

Additional observations from a re-analysis of the deposited data

Results flagged for a closer look

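Among 178 groups of 5 array values examined, from the 43 lists and the genes whose values are given by array, 8 had an end value whose gap to the next, as a share of the group's range, exceeded 0.71, and chance gives about 1 such group in 20. In the lists, the unfolded protein response lay at 0.03 in injured wild-type replicate 1, above the other 4, and antioxidant genes lay at -0.39 in the same array, below the others. Mast cell genes lay at -0.39 in injured wild-type replicate 2. Neuroendocrine and tuft cell genes lay at 0.25 in injured wild-type replicate 5 and at -0.22 in injured Myd88KO replicate 5, each above the other 4 arrays of its group, and both arrays lie on slide 5. In single genes, C4b read 3.52 in injured wild-type replicate 4, Ccl2 read 0.25 in uninjured wild-type replicate 1 and Mogat2 read -1.4 in injured Myd88KO replicate 1, each above the other arrays of its group.

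Of the 144 genes named by rule, 138 had a value on every injured array. In 15 of these all 5 injured arrays of one genotype lay above, and all 5 of the other below, the uninjured mean of their genotype. In 11 the wild-type arrays lay above: Mogat2 (interaction -2.44), Angptl4 (-2.2), Calhm6 (-1.91), Rnf165 (-1.53), Adra1b (-1.37), Ddx58 (-1.15), Impdh1 (-1.14), H6pd (-1), Col15a1 (-0.73), Srebf1 (-0.71) and Robo4 (-0.65). In the other 4 the Myd88KO arrays lay above: Pttg1 (2.11), Adh7 (1.16), Nck1 (1.12) and Pln (0.91). The genes were named for their low interaction p, which favours this pattern, and 0 of the 15 passed the adjusted limma test of the interaction. The same count was not made over all genes tested, so the 15 and their split by direction have no background share beside them.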

How the results depend on the processing

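Under the settings that used arrays of both scan days no named gene changed direction, while 15 of the 144 had opposite signs on the 2 scan days. Of 4443 gene values 4 passed the threshold where the reported value did not: Alox15 at 2.69 with slide or scan day as a block, and Frmd5 at -2.79 with scan day as a block and -3.33 when arrays were weighted. The count of called interaction probes, 0 as reported, was 1 with the slide, which is the replicate number, as a replicate block, 2 when scan day was the block and 3 when arrays were weighted, and 0 to 3 when single arrays were left out, the 3 coming without injured Myd88KO replicate 5. Deviations from the group means correlated from -0.261 to 0.478 over 30 pairs of arrays of the same slide (median 0.242) and with a median of -0.0803 over 120 pairs of different slides, so arrays of a slide tended to deviate together, but not in every pair. Higher probes at the unadjusted threshold numbered 1442 with scan day as a block and 611 to 1560 without single arrays, the ends being without injured Myd88KO replicates 3 and 2. On the second scan day alone, a choice made after seeing the data with 2 arrays per group, 146 probes were called and 2680 lower and 1971 higher probes met the unadjusted threshold. Of the 144 named genes 59 moved by over 1.5 times under some setting that kept all arrays: 31 with normexp background correction, among them Alox15 (1.62), Calhm6 (-0.72) and Rnf165 (-0.66), 23 with arrays weighted, 12 after quantile normalization and 1 with dim values floored. With arrays weighted, the medians were -0.28 for neutrophils, 0.32 for ciliated cells, -0.33 for macrophages, -0.43 for matrix metalloproteinases and -0.45 for collagens, and with probes detected on all 20 arrays that of neutrophils was -0.4. When single arrays were left out, the medians of 12 of the 43 lists changed sign in at least 1 case, and those of 33 lists, these 12 included, changed sign or moved by over 1.5 times. The other 10, in this respect alone, were interferon-stimulated, complement, endothelial, nerve, chemokine, NF-kB, xenobiotic, fatty acid, T and NK cell and white adipocyte genes. Without single arrays the neutrophil median ranged from -1.89 (without injured Myd88KO replicate 4) to -0.6 (without replicate 5), and the ciliated median from 0.35 to 1.52 (without injured Myd88KO replicates 1 and 4). The median of ribosomal protein genes was -0.01 after quantile normalization, and that of B and plasma cell genes was 0.76 with probes detected on all 20 arrays and 0.8 as a mean. Without single arrays the median ranged from 0.09 to 0.4 for airway ion transport, from -0.22 to 1 for squamous epithelium and from -0.35 to 0.05 for cardiac muscle. The cause of these shifts was not tested. The median of all genes was -0.11, or -0.06 after quantile normalization, and list medians are to be read relative to it. Genes not well above background have only a bound. Ccr7 and Duox2 were well above background on 2 of 5 uninjured arrays, of wild-type and of Myd88KO mice respectively, and their interactions ranged from -2.32 to -0.82 and from 0.24 to 1.21 over the settings. Others were well above background on 3 of 5 arrays of a group: Cd2 in uninjured wild-type (-0.94 to -0.26), Lce3c in injured wild-type (2.51 to 5.54) and Nppb in injured Myd88KO tracheas (-0.73 to -0.11).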
